A study of Mus musculus with 4 samples.

Results

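The genes described here are 9 mouse genes of cholesterol efflux and its control by the liver X receptors (LXR): the efflux pumps Abca1 and Abcg1, the lipid carriers Apoe and Apoc1, the receptor genes Nr1h2, Nr1h3 and Rxra, the ubiquitin ligase gene Mylip and the cholesterol esterification enzyme gene Soat1. They were chosen by name, and 9 of 9 were found by Ensembl identifier among the 55471 genes of the count table. The 4 libraries belong to 1 group: brain CD11b cells, isolated with magnetic beads from mice of 10 to 13 weeks given PLX5622, which blocks the receptor kinase CSF1R, for 7 days and then kept 10 days without it, 17 days in all. CD11b marks microglia and other myeloid cells, and microglia depend on CSF1R for survival. The labels give neither strain nor sex, do not say whether a library is 1 animal or a pool, and number the libraries 1 to 4; no untreated group was analysed here, so no effect of the drug is estimated, and cells that survived it cannot be told from cells that returned.

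Cells shed cholesterol when sterol accumulates. Oxysterols, which are oxidised forms of cholesterol, bind LXR proteins that sit on DNA as pairs with a retinoid X receptor (RXR), and the pair then switches on pumps and carriers that move cholesterol out of the cell. LXR also raises MYLIP (known as IDOL), which marks lipoprotein receptors for degradation and so limits uptake, while SOAT1 stores surplus cholesterol as esters in lipid droplets. In the brain, lipoprotein particles built on apolipoprotein E carry cholesterol between glia and neurons, and microglia use this system when they clear myelin and dead cells.

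All 10 homeostatic microglia markers were detected in every library, with a median of 1911 CPM (counts scaled to library size), and libraries held 23036202 to 24487418 counts. Markers of other cells were also present: all 8 endothelial, all 8 choroid plexus and all 8 border-associated macrophage markers reached 1 CPM in every library. Library 3 held the least vascular and choroid plexus RNA, with summed levels of 290 CPM for the endothelial list, 99.0 CPM for the pericyte and smooth muscle list and 3340 CPM for the choroid plexus list, against 1064 to 1310 CPM, 439 to 683 CPM and 16048 to 22391 CPM in the other libraries. Library 1 held the most border macrophage RNA, with a summed level of 681 CPM against 272 to 327 CPM. Library 1 also differed by gene length. Over all genes tested, its median ratio to the other libraries was 1.23 for genes with under 2 kb of exons (2151 genes) and 0.869 for genes with over 10 kb (1339 genes).

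One regulatory sequence is shown because it holds the kind of site through which LXR is known to act on a member. LXR and RXR bind a direct repeat of AGGTCA-like sites with 4 bases between them, called DR4. RefSeq promoter windows of GRCm38.p6, which run from 250 bases before to 50 bases after a transcription start, were found for 7 of the 9 genes, in 11 windows. A relaxed DR4, spelled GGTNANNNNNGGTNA and searched on both strands, occurred in 1 of these genes, Abca1, and in 236 of all 32851 windows (0.718%). The relaxed spelling was chosen with the known Abca1 element in mind, so the match is a description and no test. The consensus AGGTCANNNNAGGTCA, every match of which is also a match of the relaxed form, occurred in none of the 11 windows and in 5 windows of all genes (0.0152%). The Abca1 window lies at chr4:53159846-53160145 on the minus strand of GRCm38.p6 and is printed on that strand. Capitals mark the match, 67 to 53 bases before the start, which reads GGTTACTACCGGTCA on the opposite strand.
Abca1: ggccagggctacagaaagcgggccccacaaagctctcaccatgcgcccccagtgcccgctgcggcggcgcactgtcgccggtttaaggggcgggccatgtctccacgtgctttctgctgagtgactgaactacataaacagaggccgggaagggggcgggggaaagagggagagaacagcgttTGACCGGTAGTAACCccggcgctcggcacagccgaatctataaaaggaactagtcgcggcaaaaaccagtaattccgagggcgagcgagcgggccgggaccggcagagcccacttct

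The first question is how high each gene stood and how the genes ranked. Of the 9 genes, 8 were detected, meaning 1 CPM or more in every library; Apoc1 was the exception, 22.6% of the genes in the table and 44.9% of those with at least 1 count were detected. Library sizes were adjusted with edgeR's TMM factors before CPM were taken. The 9 genes are ordered after division by exonic length, as CPM per kb. Levels given in plain CPM are not divided by length and set no order between genes. On that scale Apoe led with 726 ± 169 CPM per kb (SD, n = 4). Mylip followed with 88.2 ± 14.1, Abca1 with 49.2 ± 8.49, Nr1h2 with 25.9 ± 0.878, Abcg1 with 17.7 ± 2.17, Rxra with 16.3 ± 0.704 and Soat1 with 13.0 ± 1.62 CPM per kb. Apoc1 and Nr1h3 closed the order with 1.20 ± 0.753 and 1.17 ± 0.0658 CPM per kb.

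Of the 8 pairs of neighbours in this order, 7 had the same gene higher in 4 of 4 libraries. The exact two-sided sign-flip permutation p was 0.125 for each of these, the smallest that 4 libraries allow (2 of 16 sign flips), with an adjusted p of 0.143 over the 8 pairs, so no pair could pass 0.05. Abcg1 and Rxra overlapped in level, at 15.5 to 20.6 and 15.4 to 17.0 CPM per kb, and their log2 difference of 0.11 ± 0.13 was smaller than its spread. Apoc1 and Nr1h3 also overlapped. Apoc1 was the higher in 1 of 4 libraries (log2 difference -0.15 ± 0.72, exact sign-flip p = 0.75). The distance between Abca1 and Nr1h2 depended on the length used. It was 1.88-fold with all exons of the gene and 1.13-fold, with Abca1 higher in 3 of 4 libraries, with the longest transcript.

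**Figure D1:**
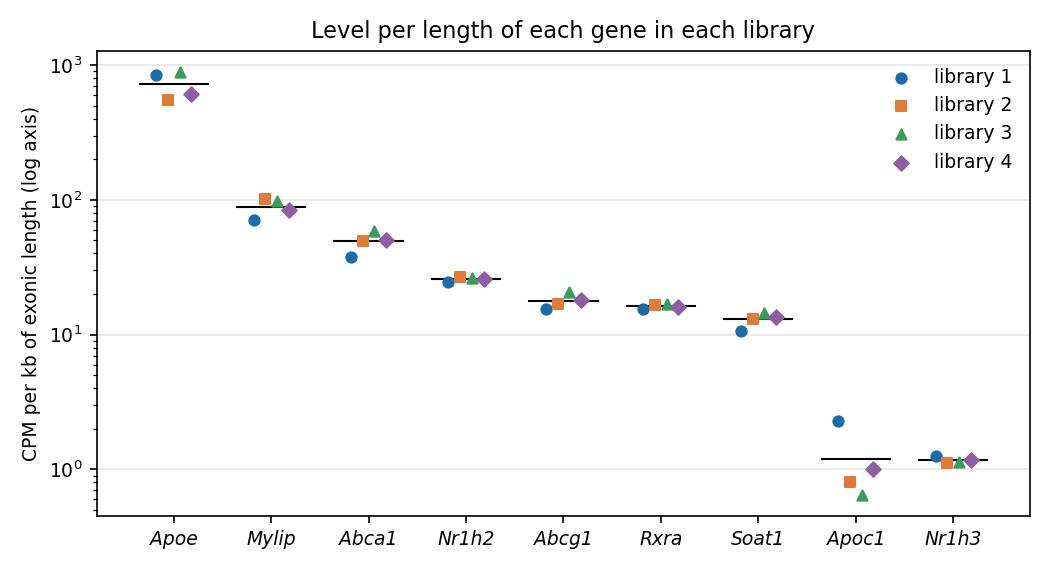
Level of each of the 9 genes in CPM per kb of exonic length on a log axis, with 1 point per library (n = 4) and a bar at the mean. Apoe stood highest at 726 CPM per kb, and Apoc1 and Nr1h3 lowest at 1.20 and 1.17 CPM per kb.

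The receptor genes were the steadiest of the set. Nr1h2 encodes LXR beta, the form found in most tissues, and Nr1h3 encodes LXR alpha, known for its role in liver and in macrophages. Nr1h2 (ENSMUSG00000060601, GRCm38 chromosome 7, 44549616 to 44553951) had 82.6, 89.3, 88.3 and 86.7 CPM in libraries 1 to 4. Nr1h3 (ENSMUSG00000002108, chromosome 2, 91184061 to 91202834) had 3.18, 2.81, 2.86 and 2.94 CPM, from 78, 65, 65 and 74 counts, well above the floor of 3 counts; 34 bases of its exons are shared with Gm13783 on the same strand. The lowest library for Nr1h2 was above the highest library for Nr1h3. Per kb, Nr1h2 exceeded Nr1h3 19.5-, 23.8-, 23.1- and 22.1-fold in libraries 1 to 4, with a geometric mean of 22.1-fold (29.2-fold with the longest transcripts). In bulk RNA, fewer cells of a type and less RNA per cell cannot be told apart, and this holds for every level here. The ratio describes the RNA of all CD11b cells together.

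Rxra encodes the partner RXR alpha. It had 84.2, 91.3, 92.9 and 88.0 CPM in libraries 1 to 4 (ENSMUSG00000015846, chromosome 2, 27676440 to 27762957), and its highest library exceeded its lowest 1.10-fold. Of the other RXR genes, Rxrb stood at 25.7 CPM per kb, above Rxra in 4 of 4 libraries, with Rxra at 0.634 of Rxrb (0.467 with the longest transcripts). Rxrg had only 21, 36, 60 and 44 counts, and Rxra exceeded it 23.8-fold per kb. Rxra stood at 0.626, 0.628, 0.646 and 0.623 of Nr1h2 per kb in libraries 1 to 4, so this ratio moved 1.04-fold between its highest and lowest library.

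**Figure D2:**
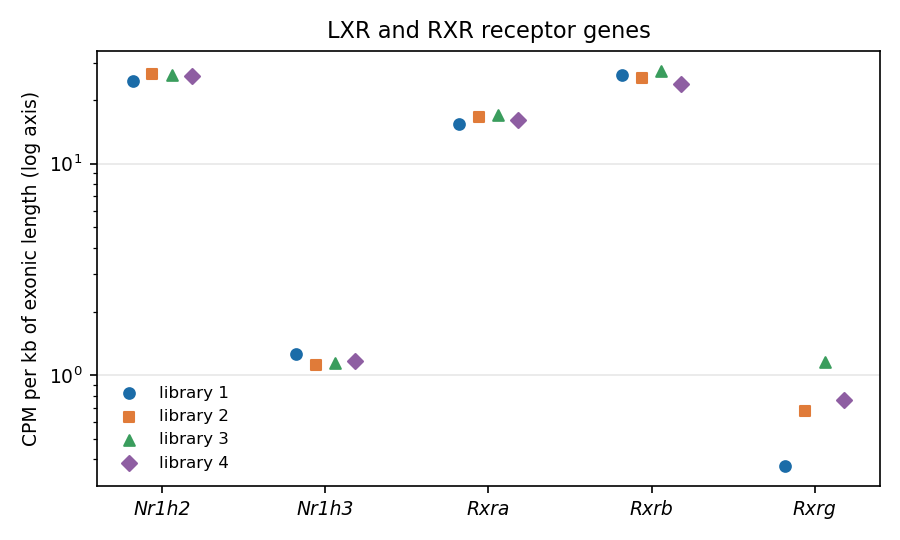
Level of the LXR genes Nr1h2 and Nr1h3 and the RXR genes Rxra, Rxrb and Rxrg in CPM per kb of exonic length on a log axis, with 1 point per library (n = 4). Nr1h2, Rxra and Rxrb lay close together, and Nr1h3 and Rxrg lay far below them in each library.

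The efflux pumps were both well expressed. ABCA1 loads cholesterol and phospholipid onto lipid-poor apolipoproteins, and ABCG1 passes cholesterol to particles that already carry lipid. Abca1 (ENSMUSG00000015243, chromosome 4, 53030787 to 53159895) had 393, 517, 606 and 525 CPM in libraries 1 to 4, a mean of 510.1 ± 88.0 CPM. Library 1 was the lowest and library 3 the highest, 1.54-fold apart. Abcg1 (ENSMUSG00000024030, chromosome 17, 31057675 to 31117988) had 113, 123, 150.1 and 131 CPM, with the same libraries at the ends, 1.33-fold apart. Per kb, Abca1 exceeded Abcg1 2.45-, 2.97-, 2.84- and 2.81-fold in libraries 1 to 4.

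Soat1 and Mylip, which act on storage and uptake, were also lowest in library 1. Soat1 (ENSMUSG00000026600, chromosome 1, 156424525 to 156474331) had 105, 128, 143 and 133 CPM in libraries 1 to 4. Its paralogue Soat2, the form known from liver and intestine, had 57, 51, 43 and 43 counts, and Soat1 exceeded it 14.2-fold per kb. Mylip (ENSMUSG00000038175, chromosome 13, 45389742 to 45412022) had 227, 326, 317 and 271 CPM, so library 2 was the highest and library 1 the lowest, 1.43-fold apart.

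The carriers Apoe and Apoc1 lie next to each other on chromosome 7 but stood far apart in level. Apolipoprotein E is the main apolipoprotein of the brain and also a product of astrocytes; apolipoprotein C1 is a small protein of plasma lipoproteins known from liver and macrophages. Apoe (ENSMUSG00000002985, chromosome 7, 19696109 to 19699188) had 1817, 1185, 1904 and 1305 CPM in libraries 1 to 4. Libraries 1 and 3 were high and libraries 2 and 4 low. Apoc1 (ENSMUSG00000040564, chromosome 7, 19689481 to 19692660) had 42, 14, 11 and 19 counts, or 1.71, 0.605, 0.484 and 0.754 CPM. Library 1 was the highest by 2.79-fold over the mean of the others, and the mean of 0.889 CPM was 0.614 CPM without it.

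Per kb, Apoe exceeded Apoc1 369-, 682-, 1368- and 602-fold in libraries 1 to 4, so the ratio itself moved 3.71-fold. The other genes of this cluster were near or below the floor of 3 counts. Apoc4 had 1 count in each library, and Apoc2 had 0 counts, but 79.5% of the exonic length of Apoc2 is shared with the readthrough gene Gm44805, so its count is uncertain. The border macrophage list was highest in library 1 for 8 of its 8 members, with Mrc1, the mannose receptor, at 291, 148, 141 and 121 CPM and Cd163, a haemoglobin scavenger receptor, at 69.0, 32.6, 24.5 and 27.2 CPM in libraries 1 to 4. Library 1 was also the highest for 5 of 6 monocyte and neutrophil markers and 7 of 8 oligodendrocyte markers, against 34.2% of all genes. The part of border macrophages, or of these other cells, in the Apoc1 values was not tested. The 8 astrocyte markers summed to 288, 222, 255 and 314 CPM in libraries 1 to 4. Of these, 5 were lowest in library 3, where Apoe was highest, 2 in library 2, where Apoe was lowest, and 1 in library 1. In library 4, 6 were highest, and 2 were highest in library 1. Slc1a3, the astrocyte marker with the most CPM, had 167, 125, 151 and 147 CPM in libraries 1 to 4, lowest in library 2 as Apoe was. The part of astrocytes in the Apoe values was not tested.

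The second question is whether any of these genes varied between libraries. For each gene the residual deviance of a negative binomial fit in edgeR was tested (a goodness of fit), adjusted by Benjamini-Hochberg over the 14112 genes kept by its filter on low counts, and 3.28% of them passed an adjusted p of 0.05. Of the 9 members, 9 were tested and 0 passed. At an unadjusted p under 0.05 there were also 0, against 9.57% of all genes. The quasi-likelihood test, which sets the variance of a gene against its trended prior, and DESeq2, which marks outliers of dispersion, gave 0 members as well, and over all genes 0.00% and 0.0354%. At an unadjusted p under 0.05 the quasi-likelihood test gave 0 members and 4.66% of all genes. The smallest unadjusted p was 0.103 for Apoc1, followed by 0.168 for Apoe and 0.397 for Abca1. The median SD of log2(CPM + 0.5) was 0.19 over the 9 genes and 0.21 over all genes tested. A p over the threshold does not show that libraries were equal. On simulated data the test found larger changes far more often than smaller ones, and it missed most of the smaller ones. Even those were set larger than 1.61-fold, the largest ratio between libraries of a detected member. The 0 calls therefore do not show that the members were steady. The common biological coefficient of variation over all genes was 26.6%.

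Most members were at their lowest in library 1. There were 6 such genes, Abca1, Abcg1, Soat1, Mylip, Nr1h2 and Rxra, against 31.0% of all genes tested, although Nr1h2 and Rxra differed little between libraries. The count was 6 under each of the 3 other scalings too, against 34.0% of all genes with DESeq2 size factors, 30.7% with total counts and 45.2% when libraries were scaled to the homeostatic markers. Of the 9 members, 4 (Abca1, Abcg1, Rxra and Soat1) were both lowest in library 1 and highest in library 3, against 17.2% of all genes; the count was 5 with DESeq2 size factors, 3 with total counts and 0 with homeostatic scaling. Apoc1 and Nr1h3 were highest in library 1 (34.2% of all genes), Mylip and Nr1h2 were highest in library 2 (16.5%), and Apoe and Nr1h3 were lowest in library 2 (19.5%). Apoc1 was lowest in library 3 (29.2%). No member was lowest (20.3%) or highest (20.9%) in library 4 on the TMM scale. In library 3, 5 members were at their highest, against 28.3% of all genes; this count was 6 with DESeq2 size factors (33.9% of all genes), 4 with total counts (18.8%) and 1 with homeostatic scaling (10.0%), which moved library 1 down by 0.15 and library 4 up by 0.18 on the log2 scale. Under that last scaling 6 members, Abca1, Abcg1, Nr1h2, Nr1h3, Rxra and Soat1, were highest in library 4, as were 57.8% of all genes. No test was made of these counts, since the genes were listed with the levels known.

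**Figure D3:**
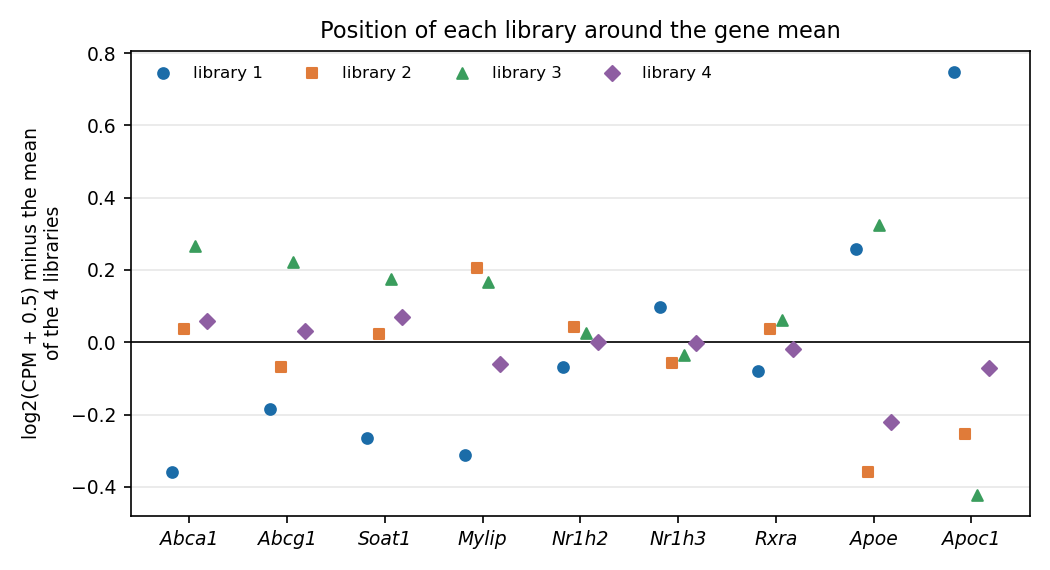
Position of each library around the mean of the gene, as log2(CPM + 0.5) minus the mean of the 4 libraries, with 1 point per library. Library 1 lay lowest for Abca1, Abcg1, Soat1 and Mylip, while Apoe was high in libraries 1 and 3 and Apoc1 was highest in library 1.

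The low values of library 1 are set here beside gene length. The log2 difference between library 1 and the mean of the others was -0.48 for Abca1, which has 10363 bases of exons, and the median for genes with over 10 kb was -0.20. It was -0.35 for Soat1 and -0.25 for Abcg1, against a median of -0.08 for genes of 5 to 10 kb. Rxra, in that class too, differed by -0.11, and 46.5% of the class lay lower. Among the genes that were lowest in library 1, Mylip lay lowest within its class. It has 3233 bases of exons and differed by -0.42, against a median of 0.10 for genes of 2 to 5 kb, of which 7.30% lay lower. Nr1h2, in the same class, differed by -0.09, and 28.4% of the class lay lower. Apoe (2138 bases) differed by 0.34, and 74.4% of its class, also 2 to 5 kb, lay lower. Apoc1 (744 bases) differed by 1.00, against a median of 0.30 for genes under 2 kb, of which 95.2% lay lower. The part of length, or of RNA quality, in the member values was not tested.

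**Figure D4:**
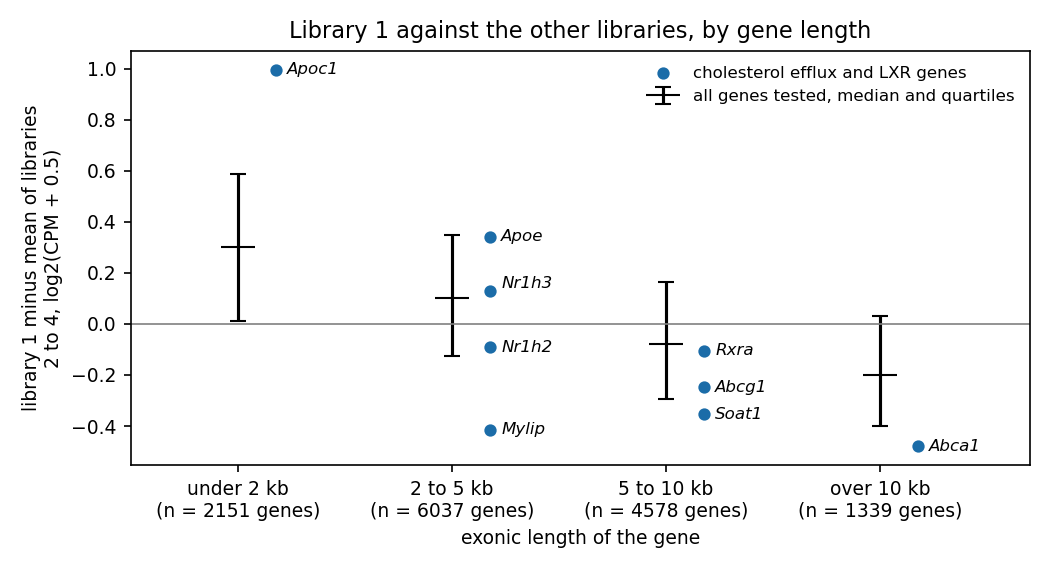
Difference between library 1 and the mean of libraries 2 to 4 in log2(CPM + 0.5), by exonic length of the gene, with black bars for the median and quartiles of all genes tested and blue points for the 9 genes. The median over all genes was 0.30 in the shortest class and -0.20 in the longest. Mylip at -0.42, Abca1 at -0.48 and Soat1 at -0.35 lay below the lower quartiles of their classes.

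Apoe had the largest ratio between libraries among the detected members, 1.61-fold. Among 8471 other genes with at least 10 CPM in every library, the smallest Euclidean distances between centred log2 profiles over the 4 libraries were those of Rps15 (0.018), Pfdn5 (0.029), Eef1b2 (0.031), Rplp1 (0.056) and Rpl22 (0.076). Rps15, Rplp1 and Rpl22 encode ribosomal proteins, Eef1b2 encodes a subunit of elongation factor 1 and Pfdn5 a subunit of the chaperone prefoldin. Rps15 had 380.0, 246, 393 and 273 CPM in libraries 1 to 4. With 4 points per gene, 65 genes lay within a distance of 0.2, so closeness is a description of these libraries only.

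The third question is how the rest of the pathway stood beside these genes. Of 106 further genes in 8 lists, 91 were tested and 4 varied between libraries in edgeR (4.40%, against 3.28% of all genes), 2 of them LXR targets and 2 of them lipoprotein receptors. All 4 were lowest in library 3, and the quasi-likelihood test and DESeq2 called 0 of the 91. Pltp, the phospholipid transfer protein that remodels lipoproteins, had 283, 257, 73.7 and 272 CPM in libraries 1 to 4 (adjusted p = 0.000102, edgeR goodness of fit, 1 without library 3). The labels name a strand-marking library kit, but not the strand setting of the counting, and 19.3% of the exonic length of Pltp overlaps Ctsa on the opposite strand. Apod, a lipocalin that binds small lipids, had 66.8, 38.6, 15.8 and 34.9 CPM (adjusted p = 0.00563, 0.337 without library 3 and 0.292 without library 1).

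The receptors Vldlr and Lrp8, which bind apolipoprotein E and are both targets of MYLIP, followed the same library. Vldlr had 21.6, 28.8, 5.86 and 43.1 CPM in libraries 1 to 4 (adjusted p = 0.000248, edgeR, 0.605 without library 3 and 0.0602 without library 4). Lrp8 had 18.3, 33.5, 8.76 and 44.2 CPM (adjusted p = 0.00237, 0.224 without library 3 and 0.18 without library 4). Beside these values stand the marker lists, of which 3 were lowest in library 3 throughout. All 8 endothelial, all 8 pericyte and all 8 choroid plexus markers were lowest in that library, with Slco1a4, an endothelial transporter, at 150.3, 139, 30.4 and 141 CPM, Acta2, smooth muscle actin, at 170.3, 124, 16.5 and 81.7 CPM and Ttr, the thyroxine carrier of the choroid plexus, at 11345, 10479, 2115 and 14562 CPM. Of the 8 oligodendrocyte markers, 7 were highest in library 1 and 2 were lowest in library 3, both called in edgeR. These were the myelin genes Mbp, at 382, 207, 84.0 and 237 CPM, and Mobp, at 131, 61.1, 20.6 and 77.5 CPM in libraries 1 to 4; Apod was also highest in library 1 and lowest in library 3. Vldlr and Lrp8 were highest in library 4, as were all 8 choroid plexus and 6 of the 8 astrocyte markers, against 20.9% of all genes. The 8 neuron markers, of which 4 were detected, summed to 24.5, 27.0, 16.6 and 28.3 CPM in libraries 1 to 4. Of the 6 neuron markers tested, 3 were lowest in library 3 and 1 was highest in library 4. The part of all these cells in the 4 genes was not tested. Abca1 and Abcg1 were highest, not lowest, in library 3 on the TMM scale, and highest in library 4 with homeostatic scaling.

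**Figure D5:**
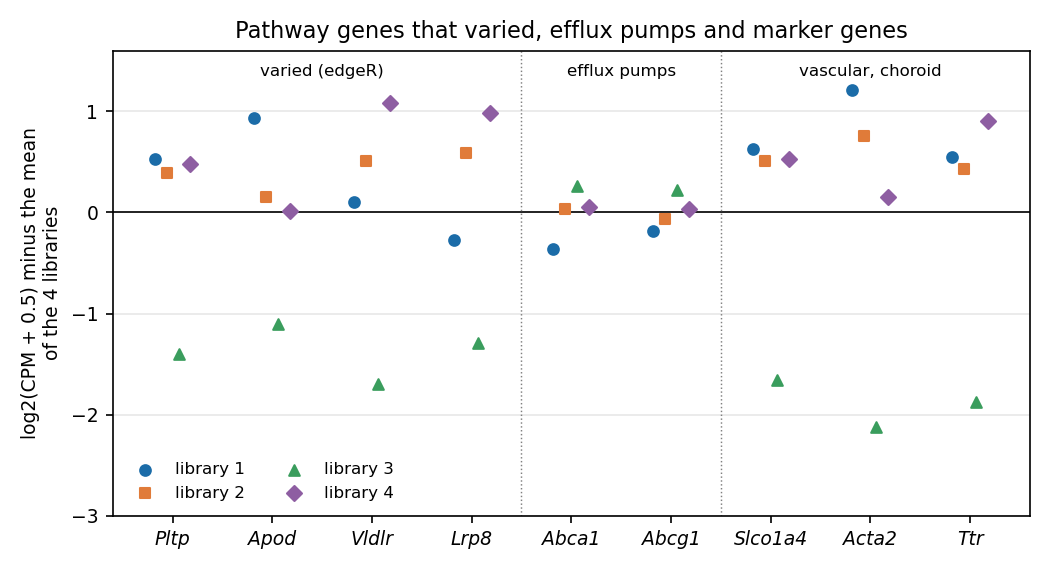
Position of each library around the gene mean, as log2(CPM + 0.5) minus the mean of the 4 libraries, for the 4 pathway genes that varied in edgeR, the 2 efflux pumps and 3 vascular or choroid plexus markers. Library 3 was lowest for Pltp, Apod, Vldlr, Lrp8 and the markers, and highest for Abca1 and Abcg1, for which library 4 was highest with homeostatic scaling.

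Among the other LXR targets, 14 of 19 genes were detected and 14 were tested. Mertk, a receptor kinase for the uptake of dead cells, had 848 ± 103 CPM, and Arl4c, a small GTPase, had 282 ± 48.4 CPM. Lpcat3, which remodels phospholipids, had 123 ± 7.22 CPM and Srebf1, the transcription factor of fatty acid synthesis, had 57.5 ± 6.78 CPM. Abcg5 and Abcg8, the sterol pumps of liver and intestine, had 1 to 4 and 0 to 1 counts per library. Abcg5 was above the floor of 3 counts in 1 library and Abcg8 in 0. Scd1, a fatty acid desaturase, had 22.4, 24.1, 8.67 and 36.0 CPM, lowest in library 3, with an adjusted p of 0.0674 in edgeR (0.0298 without library 1).

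Of 12 further ABC transporters, 11 were detected and 0 of 12 tested genes passed the edgeR test, with 1 at an unadjusted p under 0.05. Abca9 had 821 ± 101 CPM, and per kb it exceeded Abca1 2.37-, 2.06-, 2.04- and 1.90-fold in libraries 1 to 4. Its role is little known. Abca3, known from lung surfactant, had 113 ± 20.9 CPM. Abca7, a close relative of Abca1, had 79.8 ± 8.54 CPM, and Abca1 exceeded it 4.13-fold per kb.

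Lrp1, an endocytic receptor for apolipoprotein E, had 877, 1400, 1569 and 1327 CPM in libraries 1 to 4, lowest in library 1, and Scarb2, a lysosomal membrane protein, had 512 ± 55.2 CPM. Sorl1, a sorting receptor, had 58.9, 108, 140 and 110 CPM (adjusted p = 0.228, edgeR). Npc2 and Npc1, which pass cholesterol out of the lysosome, had 865 ± 163 and 284 ± 50.3 CPM, and Gramd1a, which carries cholesterol from the plasma membrane to the endoplasmic reticulum, had 304 ± 28.3 CPM. Of the 18 genes of lysosomal export and ester turnover, 17 were detected and 0 passed in edgeR, with 1 at an unadjusted p under 0.05.

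Of the 7 oxysterol enzymes, 4 were detected, and 0 of 5 tested genes passed in edgeR, also at an unadjusted p under 0.05. Cyp27a1, the mitochondrial 27-hydroxylase, had 86.9, 72.4, 86.6 and 75.3 CPM in libraries 1 to 4, Cyp46a1, the neuronal 24-hydroxylase, had 5.28 ± 1.30 CPM, and Hsd3b7, a sterol dehydrogenase of bile acid synthesis, had 3.58 ± 0.954 CPM. In the SREBP2 pathway, which raises cholesterol synthesis when sterol is scarce, 11 of 12 genes were detected and 0 of 11 tested genes passed, also at an unadjusted p under 0.05. Scap, the escort protein of SREBP, had 71.5 ± 3.35 CPM, and Hmgcs1 and Srebf2 had 60.2 ± 16.5 and 60.2 ± 8.03 CPM. The list median over all 12 genes, tested or not, was 22.3 CPM, against 22.2 CPM over all genes tested.

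Of the 14 coregulators of the receptors, 14 were detected and 12 were lowest in library 1, against 31.0% of all genes. Per kb they ranged between 6.18 CPM for Ncoa1 and 38.1 CPM for Gps2. Ncoa3, a coactivator, had 255 ± 44.8 CPM. Ncor1, a corepressor that holds unliganded LXR silent, had 161, 224, 225 and 210.1 CPM in libraries 1 to 4, and Ep300, an acetyltransferase, had 143, 246, 255 and 227 CPM. Both have over 10 kb of exons, the class for which library 1 stood low over all genes, with a median log2 difference of -0.20. Library 1 differed from the mean of the others by -0.45 for Ncor1 and -0.76 for Ep300. Ncoa3, in the class of 5 to 10 kb with a median of -0.08, differed by -0.52. The part of length in these values was not tested. None of the 14 passed in edgeR, and 0 had an unadjusted p under 0.05. Of the other nuclear receptors, Nr4a1, an early response gene, had 230.2, 470, 209 and 235 CPM (adjusted p = 0.0681, edgeR, 0.00684 without library 1 and 1 without library 2), Rxrb had 102 ± 6.48 CPM and Ppard had 74.7 ± 10.9 CPM, while 6 of 13 were detected.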

How the data were processed

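The authors deposited raw counts per Ensembl gene, in 1 column per library. RNA was poly(A)-selected from 300 ng, per the labels' protocols. The tools were featureCounts 1.6.5, STAR 2.7.2b and bcl2fastq 2.20.0.422 and the build GRCm38, per the submitters' processing notes. For annotation, strand setting and multi-mapped reads: not given in the sources used here. Identifiers were matched to GENCODE M21 for 55230 of 55471 genes, and the other 241 stayed in the totals. Between 99.15% and 100% of the 50-base stretches of each member's longest transcript occurred in no other gene. Analysis used edgeR 4.0.16 and DESeq2 1.42.0 under R 4.3.3. A floor of 3 counts was 0.119 to 0.132 CPM and covers counting error only. P-values for spread measure the spread between libraries, which may be technical. They measure only the excess over a trend estimated from these same libraries, so spread common to genes of like level is not called. Sign-flip p-values reach their smallest value whenever the same gene of a pair is higher in every library, whatever the distance. The order was set by mean levels in these same libraries, so these p-values describe it and do not test it. The spread test sets the deviance of an intercept-only fit with trended dispersion against a chi-square, and was tested on simulated data.

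The members, lists and tests were chosen with earlier results of these data known. Named genes are the members, the 3 highest of each list (some are not reported here), pathway genes past the threshold and the 5 nearest profiles to Apoe. Others (Rxrg, Soat2, Apoc2, Apoc4, Lpcat3, Srebf1, Abcg5, Abcg8, Scd1, Abca7, Ncoa1, Gps2, Mobp) were added after their values were seen. Alternatives were other scalings, no filter, other tests, another length and leaving out each library.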

Additional observations from a re-analysis of the deposited data

Results flagged for a closer look

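Among 63 named genes, 6 had 1 library far from the other 3, with a gap to the nearest library, as a share of the whole range, above the critical value of Dixon's test. Chance flags about 1 in 20 such groups, and 0 of the 6 were among the 9 efflux and LXR genes. With so few members and that rate, the 0 is no result about them. The share flagged over all genes was not taken, and some of the 63 were named because they had passed the edgeR test. Pltp stood apart in library 3 at 73.7 CPM (gap 0.873 of the range), as did the endothelial transporter Slco1a4 at 30.4 CPM (0.903). Mrc1 stood apart in library 1 at 291 CPM (0.842) and Ccr2, a monocyte chemokine receptor, in the same library at 26.9 CPM (0.942), although Ccr2 had 22.2 to 22.5 CPM in the others. Nr4a1 stood apart in library 2 at 470 CPM (0.899), and Scap in library 2 at 76.5 CPM (0.878), where the other libraries had 69.4 to 70.3 CPM.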

How the results depend on the processing

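No paired analysis was possible because the libraries form 1 group. The 8 detected members stayed 8 with DESeq2 size factors, total counts, homeostatic scaling and without each library. The 0 members called stayed 0 with DESeq2 size factors, total counts, no filter, both other tests and without each library; homeostatic scaling was not run for these calls. The 7 ordered pairs became 6 with the longest transcript. Apoc1 over Nr1h3 per kb (log2 -0.15) ranged from -0.49 without library 1 to 0.067 without library 3, where it reversed; Apoc1 had 11 to 42 counts. The 4 pathway calls ranged from 0 to 5 when single libraries were left out, at 0 without library 3 and 2 without library 4 (Pltp and Apod), and were 0 in the quasi-likelihood test and 0 in DESeq2. Total counts added Nr4a1 (adjusted p = 0.0464), and leaving out library 1 added Nr4a1 (0.00684) and Scd1 (0.0298) and lost Apod. Over all genes, a count added later as background, edgeR called 463, or 106 to 425 with single libraries left out, the quasi-likelihood test 0 and DESeq2 5. The causes were not tested. Depth limits Apoc1 most.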
